A study of Rattus norvegicus with 10 samples.

Results

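In the prefrontal cortex of adult rats, 214 genes had a higher level in every library from animals exposed to early life stress (ELS) than in any control (Con) library. The members were chosen from the deposited expression table by 3 conditions on RPKM (reads corrected for the length of the gene and the depth of the library). The mean of the 5 Con libraries had to be at least 3 RPKM, the lowest ELS value had to lie above the highest Con value, and the ELS mean had to be at least 1.15 times the Con mean. Of 16041 genes in the table, 10602 met the first condition, 429 of these also met the second, and 225 met all 3. Of 13 genes that were set aside by name, 11 were among the 225, which left 214 members. These values chose the members, so their difference between ELS and Con is given as a description and is not tested.

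The ELS animals were male Sprague-Dawley rats that had passed postnatal days 2 to 9 under limited nesting, in which dam and litter have little bedding to build a nest. The Con animals were male Sprague-Dawley rats of the same age without that procedure. Prefrontal cortex was taken from both groups at postnatal day 91 and sequenced as poly(A)-selected RNA, 5 tissue samples in each group. The labels do not say which litters the samples came from, so the spread shown is that between tissue samples.

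Limited nesting disturbs maternal care in the days when cortical synapses form, and it is used to ask which changes in the brain outlast the stress itself. The prefrontal cortex holds excitatory pyramidal neurons in layers, inhibitory interneurons, and several kinds of glia, and a piece of tissue gives the sum of their RNA. Transmitter is released there when SNARE proteins fuse synaptic vesicles with the presynaptic membrane under the control of calcium sensors, after which clathrin and its adaptors retrieve the vesicle membrane. In such bulk RNA, fewer cells of a type and less RNA per cell cannot be told apart.

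Among the 10602 genes at or above the control minimum, 2.12% met the 3 conditions in the upward direction before the named genes were left out, and 212 genes, 2.00%, met them in the downward direction. A complete separation of the groups upward, without the condition on the ratio, was found in 4.05%. The limma test over 14642 genes on log2(RPKM + 0.1), two-sided with Benjamini-Hochberg adjustment, called 0.00% of genes in either direction at an adjusted p of 0.05. At an unadjusted p under 0.05 the fit put 1475 genes higher in ELS, 10.1%, and 1513 genes lower, 10.3%. All 214 members were tested, 196 of them had an unadjusted p under 0.05, and their adjusted p ran from 0.133 to 0.432. Without ELS replicate 2 the same test called 0.929% of 14533 genes higher in ELS, 46 members among them. That fit called more genes than any other with 1 library left out. The others called 0 genes each, or 1 gene without ELS replicate 5. In each gene with an adjusted p quoted from it below, ELS replicate 2 was the ELS library nearest the controls. Leaving that library out favours a lower p, so an adjusted p from that fit is read only beside those of the other fits. Because the members were picked on the same contrast, nothing is read from these counts about them.

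Among the controls, 1 library stood apart in these genes. Con replicate 4 was the lowest of the 5 controls in 168 of the 214 members, 78.5%, against 30.9% of all genes at or above the control minimum. Within ELS, replicate 2 was the lowest library in 118 members, 55.1%, against 35.4% of those genes. ELS replicate 4 was the highest in 112 members, 52.3%, against 25.6% of those genes. Library totals were 18838898 to 22311136 reads, and Con replicate 4 had the highest. The members took 3.57%, 3.41%, 3.71%, 3.85% and 3.64% of the reads in ELS replicates 1 to 5, against 3.14%, 3.05%, 3.04%, 2.41% and 3.24% in Con replicates 1 to 5. Without Con replicate 4, 140 of the 214 members still met all 3 conditions and 74 did not, because their ratio came under the limit. Applied anew without 1 library, the rule was met by 506 genes without ELS replicate 2, by 494 without Con replicate 5 and by 188 without Con replicate 4. In the 212 genes that met the mirrored rule, Con replicate 4 was the highest control in 144, 67.9%. Over all genes at or above the control minimum it was the highest control in 32.4%. A low control lowers the Con mean and so helps a gene to meet the ratio, as a high control does in the mirrored rule. The shares for Con replicate 4 are therefore partly set by the rule. The median ratio of ELS mean to Con mean was 1.204 with all 5 controls and 1.16 without Con replicate 4. Ratios of named members are therefore given in both ways.

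**Figure D1:**
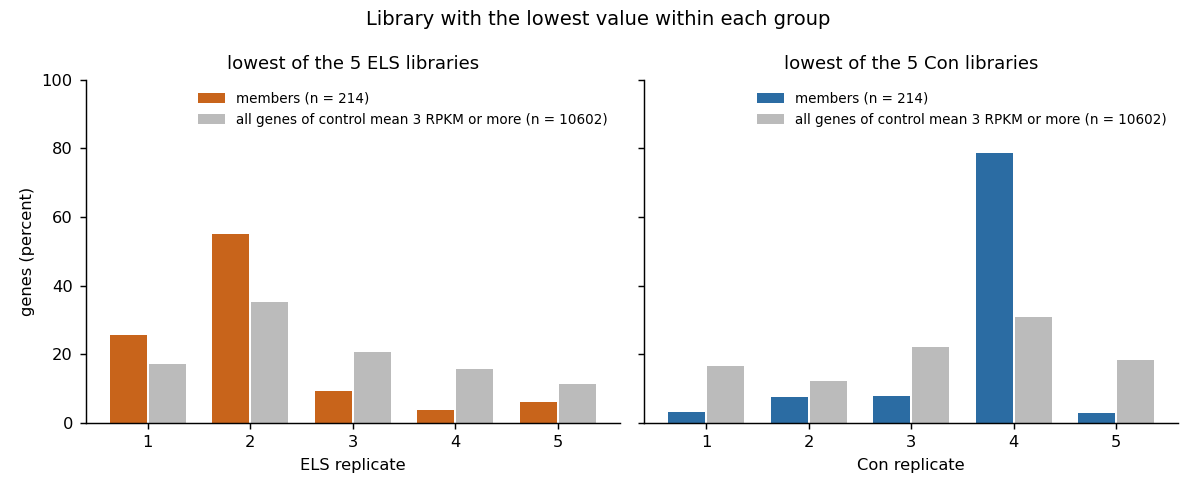
Percent of genes (vertical axis) in which each replicate (horizontal axis) had the lowest value of its group, for ELS on the left and Con on the right. Coloured bars are the 214 members and grey bars the 10602 genes with a control mean of 3 RPKM or more; Con replicate 4 reaches 78.5% of the members, against 30.9% of those genes.

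The differences were small and lay close together. The ratio of means ran from 1.15 to 2.12, with 103 members under 1.2, 75 between 1.2 and 1.3, and 36 at 1.3 or above, of which 3 reached 1.5. Without Con replicate 4, 10 members reached 1.3, and 9 of these had done so with it. The gap between the groups, the lowest ELS value over the highest Con value, had a median of 1.03, and it was under 1.01 in 41 members and at least 1.1 in 6. On the log2 scale the median difference was 0.27 over the members and 0.0037 over all genes tested. Spread within a group, as the coefficient of variation, had a median over the members of 5.43% in ELS and 10.2% in Con. Over all genes at or above the control minimum it was 6.62% in ELS and 9.19% in Con. The rule favours close ELS values, and a low control helps a gene to meet the ratio. The spread of the members is therefore partly set by the rule.

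The thresholds cut through a continuous run of genes. Eif2b3, a subunit of the translation factor that recharges eIF2, was just inside with a ratio of 1.15, or 1.17 without Con replicate 4, while the neuronal membrane glycoprotein gene Gpm6a, at 356 RPKM in ELS and 309.8 RPKM in Con, was just outside with a ratio of 1.149. Cit, the citron kinase of cytokinesis, passed on a gap of 1.0001, and Syt4 on 1.0002. Myh10, a nonmuscle myosin, missed it at 0.9995, and Phf24 at 0.9997. Nup210, a nuclear pore protein, had the lowest control mean of any member, 3.09 RPKM, and Cdyl, a chromodomain protein, lay outside at 2.77 RPKM.

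Several members take part in transmitter release. Of 40 genes in a list for the synaptic vesicle and its release, all at or above the control minimum, 6 were members, 15%, against 2.02% of all such genes. Doc2a, Stx1a, Sv2b, Syngr1 and Syt1 were among them. In the whole list 16 genes were higher and 2 lower in ELS at an unadjusted p under 0.05, against 10.1% and 10.3% of all genes tested. None passed the adjusted threshold, and the median log2 difference was 0.18. This list and those below were chosen with earlier results of these data known, so their shares are a description and not a test. With the genes of vesicle recycling and active zones added by function after the values were seen, 14 members belonged here, with a median ratio of 1.22, or 1.16 without Con replicate 4. The summed pan-neuronal markers were 2761 to 3108 RPKM in ELS and 2392 to 2752 RPKM in Con. That list holds the release genes Snap25, at a mean of 779 RPKM in ELS and 635 RPKM in Con, and Syt1, at 375 and 314 RPKM. The sum is therefore not a measure apart from the release genes, and the part of these markers in them was not tested.

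Stx1a (ENSRNOG00000029165), the syntaxin of the presynaptic membrane, had 121, 122, 126, 121 and 127 RPKM in ELS replicates 1 to 5, against 104, 108, 109, 30.5 and 108 RPKM in Con replicates 1 to 5. The 5 ELS libraries lay within a narrow band, 4 controls lay close below it, and Con replicate 4 was at 0.283 of the median of the other controls. The ratio of means was 1.35 with all controls and 1.16 without that library.

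Doc2a (ENSRNOG00000019920), a calcium sensor of spontaneous and asynchronous release, had 23.8, 24.3, 22.4, 23.4 and 23.3 RPKM in ELS replicates 1 to 5, against 18.4, 20.6, 21.4, 5.95 and 18.2 RPKM in Con replicates 1 to 5. That same control was again far below the rest, and leaving it out took the ratio to 1.19, against 1.39 with it. Syt1 (ENSRNOG00000006426), the calcium sensor of fast release, had 383, 354, 369, 407 and 364 RPKM in ELS replicates 1 to 5, against 332, 334, 301, 267 and 333 RPKM in Con replicates 1 to 5. The groups did not overlap, and Con replicate 4 stood at 0.804 of the median of the other controls. The ratio for Syt1 was 1.197, or 1.15 without Con replicate 4.

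Genes for the retrieval of vesicle membrane were also among the members. Snap91 (ENSRNOG00000023861), the clathrin assembly protein AP180, had 110.0, 110.2, 118, 119.7 and 113 RPKM in ELS replicates 1 to 5, against 95.6, 96.4, 89.6, 82.8 and 103 RPKM in Con replicates 1 to 5. Sh3gl2 (ENSRNOG00000006761), endophilin A1, which bends membrane at the neck of the clathrin-coated pit, had 115, 114, 122, 125 and 122 RPKM in ELS replicates 1 to 5, against 105, 105, 89.7, 94.6 and 111 RPKM in Con replicates 1 to 5. Con replicate 4 stood at 0.863 of the median of the other controls for Snap91 and at 0.899 for Sh3gl2, and the ratios without it, 1.19 and 1.16, were near those with it, 1.22 and 1.18. Ap2a1, a subunit of the AP-2 adaptor at the plasma membrane, averaged 72.0 ± 5.40 RPKM in ELS and 60.8 ± 3.64 RPKM in Con (SD, n = 5 each). Of 28 genes in the list for endocytosis and the clathrin coat, these 3 were members, 10.7%, against 2.02% of all genes at or above the control minimum. In that list 14 genes were higher and 0 lower in ELS at an unadjusted p under 0.05, against 10.1% and 10.3% of all genes tested.

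Not every gene of release was a member, and some ran the other way. Snap25, the partner of syntaxin in the SNARE complex, averaged 779 ± 80.7 RPKM in ELS and 635 ± 59.2 RPKM in Con (SD, n = 5 each) but the groups overlapped, so it was not a member. Rab3c, a small GTPase of synaptic vesicles, averaged 10.8 ± 10.1 RPKM in ELS and 23.8 ± 6.52 RPKM in Con, with a log2 difference of -1.52 ± 0.51 (SE), and Pclo, the active zone scaffold piccolo, averaged 9.15 ± 2.47 RPKM in ELS and 12.04 ± 1.73 RPKM in Con. The adjusted p in limma was 0.13 for Snap25, 0.16 for Rab3c and 0.20 for Pclo. For Rab3c, ELS replicate 2 was at 28.2 RPKM, within the controls, and the other ELS libraries at 2.64 to 9.999 RPKM. Without that library the ELS mean of Rab3c was 6.40 RPKM, 0.269 of the Con mean against 0.451 with it. The adjusted p in limma was then 0.029 for Rab3c and 0.046 for Pclo. With Con replicate 4 left out instead, it was 0.14 for Rab3c and 0.19 for Pclo.

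**Figure D2:**
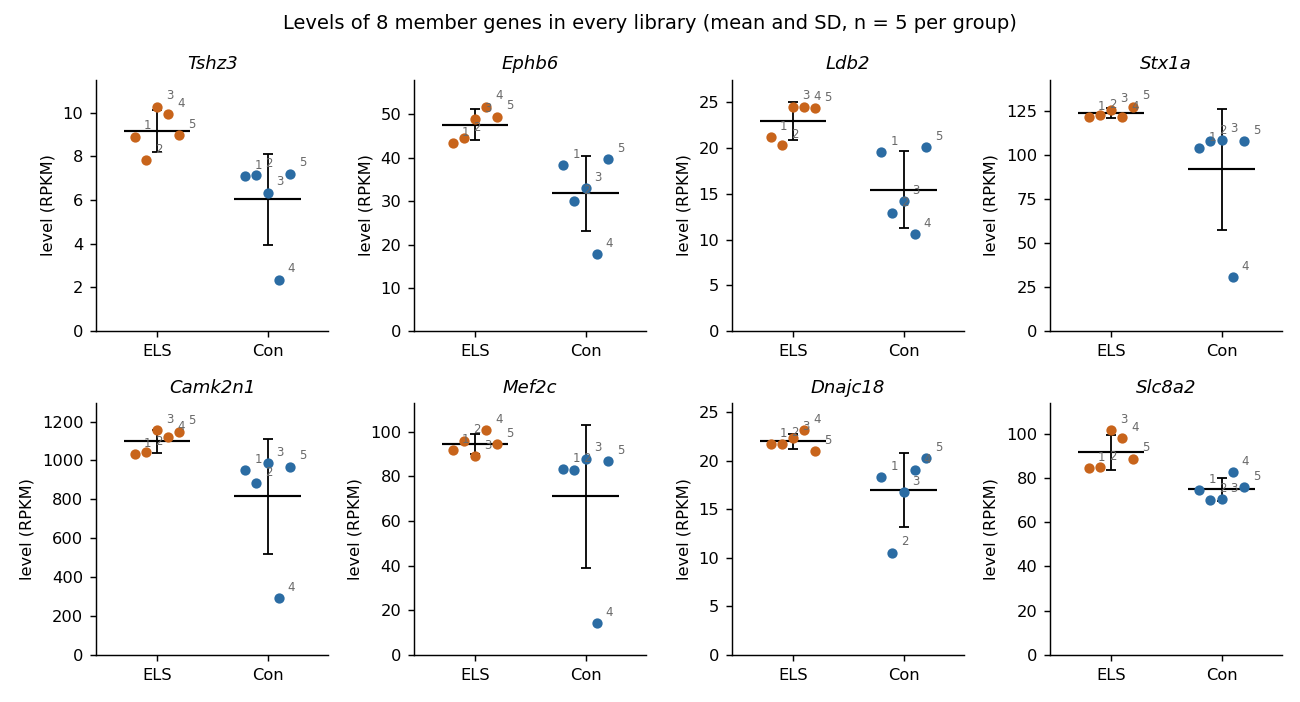
Level in RPKM (vertical axes, each from 0) of 8 members in the 5 ELS and the 5 Con libraries (horizontal axes), where points are libraries numbered by replicate and bars are mean and SD. Con replicate 4 is far below the other controls for Stx1a, Camk2n1 and Mef2c, and is not the lowest control for Dnajc18 and Slc8a2.

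The promoters of 4 members are printed because these genes stand for the release, transport and signalling groups and because 3 of them hold a cyclic AMP response element, which was seen before they were chosen. Windows run from 250 bases before to 50 bases after the annotated start and are given 5′ to 3′ on the gene's strand, from RefSeq on build GRCr8. Capitals mark matches on either strand to the TATA box (TATAAA), the GC box (GGGCGG), the cyclic AMP response element (TGACGTCA), the E-box (CACGTG), the EGR site (GCGTGGGCG), the AP-1 site (TGANTCA), the NRF1 site and the glucocorticoid response element. Matches were allowed to overlap, so a run of capitals can hold more than 1.
Stx1a (chr12:27306422-27306721, minus strand): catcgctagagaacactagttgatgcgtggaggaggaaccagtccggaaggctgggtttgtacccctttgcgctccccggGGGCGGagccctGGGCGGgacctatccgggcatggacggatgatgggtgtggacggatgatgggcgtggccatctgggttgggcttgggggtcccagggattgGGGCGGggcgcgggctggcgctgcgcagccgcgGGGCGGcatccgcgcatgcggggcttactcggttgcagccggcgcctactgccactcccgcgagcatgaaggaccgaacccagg
Sh3gl2 (chr5:104699020-104699319, plus strand): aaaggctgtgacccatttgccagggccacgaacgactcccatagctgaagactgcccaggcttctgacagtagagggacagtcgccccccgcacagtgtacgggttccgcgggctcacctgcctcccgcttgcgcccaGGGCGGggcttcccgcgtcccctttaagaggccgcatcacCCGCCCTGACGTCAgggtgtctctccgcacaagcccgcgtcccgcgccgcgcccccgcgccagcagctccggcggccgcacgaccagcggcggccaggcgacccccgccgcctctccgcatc
Klc1 (chr6:136644350-136644649, plus strand): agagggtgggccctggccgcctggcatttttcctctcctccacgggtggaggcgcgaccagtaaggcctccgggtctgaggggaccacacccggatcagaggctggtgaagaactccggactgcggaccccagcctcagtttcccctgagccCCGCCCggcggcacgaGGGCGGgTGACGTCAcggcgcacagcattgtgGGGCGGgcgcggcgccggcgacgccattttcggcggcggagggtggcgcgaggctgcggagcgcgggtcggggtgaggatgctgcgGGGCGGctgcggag
Ywhah (chr14:81930153-81930452, minus strand): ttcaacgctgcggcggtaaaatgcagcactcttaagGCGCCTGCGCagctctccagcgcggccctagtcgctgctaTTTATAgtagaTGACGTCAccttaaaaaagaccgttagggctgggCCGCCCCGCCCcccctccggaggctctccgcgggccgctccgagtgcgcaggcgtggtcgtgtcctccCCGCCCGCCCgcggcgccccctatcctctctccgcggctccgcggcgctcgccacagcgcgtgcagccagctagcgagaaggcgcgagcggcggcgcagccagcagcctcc

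The Stx1a window held 4 GC boxes and no cyclic AMP response element. In Sh3gl2 and Klc1 a cyclic AMP response element lay next to a GC box, and in Ywhah it followed a match to TATAAA on the other strand. Windows were found for 156 members and for 7997 of all genes at or above the control minimum. The cyclic AMP response element was in 10 of the 156, 6.41%, against 3.39% of the 7997. The 10 genes were Ell2, Gpcpd1, Habp4, Irgq, Klc1, Nol4, Sh3gl2, Tspyl4, Wdr37 and Ywhah. GC boxes were in 69.9% of member windows and 64.95% of all windows, NRF1 sites in 12.8% and 11.05%, TATA boxes in 7.05% and 5.90%, and AP-1 sites in 5.77% and 4.19%. The E-box was in 8.33% of member windows and 9.82% of all windows. The EGR site was in 1.28% and 1.14%, and the glucocorticoid response element was in 0 member windows and in 18 of the 7997. Member windows had a median GC content of 64.3% and 24 CpG, against 62.0% and 22 over all windows. These are matches of letters in a window and say nothing about the binding of a factor.

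Members with a role in transcription and chromatin numbered 20, with a median ratio of 1.26, or 1.18 without Con replicate 4. In 11 of these 20 that library lay under 0.7 of the median of the other controls. The share was 29.4% over all members and 8.63% over all genes at or above the control minimum. With all controls, Tcerg1l and Tshz3 had the highest ratios among members with a functional name, but without Con replicate 4 Ldb2 and Ephb6 were above both. Tshz3 (ENSRNOG00000013938), a zinc finger homeobox gene of cortical projection neurons, had 8.90, 7.81, 10.3, 9.92 and 8.96 RPKM in ELS replicates 1 to 5, against 7.08, 7.17, 6.34, 2.36 and 7.21 RPKM in Con replicates 1 to 5. Ldb2 (ENSRNOG00000003205), a cofactor that links LIM-domain transcription factors, had 21.2, 20.3, 24.5, 24.4 and 24.3 RPKM in ELS replicates 1 to 5, against 19.5, 12.9, 14.2, 10.6 and 20.1 RPKM in Con replicates 1 to 5. Tshz3 had a ratio of 1.52, or 1.32 without Con replicate 4. In Ldb2, Con replicates 2, 3 and 4 were all well below Con replicates 1 and 5, the highest control was close to the lowest ELS library, and the ratio was 1.49, or 1.38 without Con replicate 4. Tcerg1l (ENSRNOG00000016737), a paralog of a transcription elongation regulator, had 12.4, 12.9, 14.9, 16.7 and 13.4 RPKM in ELS replicates 1 to 5, against 10.4, 10.7, 10.7, 2.65 and 11.4 RPKM in Con replicates 1 to 5. In Tcerg1l, Con replicate 4 was at 0.247 of the median of the other controls, and the ratio of 1.53 became 1.301 without it.

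In Cux2 and Mef2c the same library also lay far below the other controls. Cux2 (ENSRNOG00000001259), a homeobox gene of upper-layer cortical neurons, had 21.7, 19.4, 21.5, 21.7 and 22.2 RPKM in ELS replicates 1 to 5, against 17.2, 18.1, 18.5, 4.46 and 17.3 RPKM in Con replicates 1 to 5. The controls other than replicate 4 were within a narrow band just under the ELS libraries, and the ratio was 1.41, or 1.198 without Con replicate 4. Mef2c (ENSRNOG00000033134), an activity-dependent factor that limits excitatory synapse number, had 92.0, 96.1, 89.3, 101 and 94.6 RPKM in ELS replicates 1 to 5, against 83.2, 83.1, 88.0, 14.2 and 86.9 RPKM in Con replicates 1 to 5. For Mef2c, Con replicate 4 was at 0.167 of the median of the other controls, the lowest share of any member. The ratio of 1.33 became 1.11 without that library, so Mef2c no longer met the condition on the ratio. Lmo4, a LIM-only cofactor, had a ratio of 1.33, or 1.21 without Con replicate 4, and Emx1, a homeobox gene of dorsal forebrain, 1.204, or 1.14.

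Of 36 remodellers and lysine methylases at or above the control minimum, Chd5 and Smarca2 were members, 5.56%, against 2.02% of all such genes. Smarca2, an ATPase of the SWI/SNF complex, averaged 32.8 ± 1.96 RPKM in ELS and 25.9 ± 3.83 RPKM in Con (SD, n = 5 each) with a ratio of 1.27, or 1.21 without Con replicate 4. Chd5, a neuronal remodeller of the NuRD type, averaged 49.4 ± 2.62 RPKM in ELS and 40.1 ± 4.41 RPKM in Con, and its ratio was 1.23, or 1.17. In the whole list 2 genes were higher and 8 lower in ELS at an unadjusted p under 0.05, against 10.1% and 10.3% of all genes tested, none past the adjusted threshold. Among those lower, Chd7, another remodeller of the CHD family, averaged 1.05 ± 0.119 RPKM in ELS and 1.72 ± 0.349 RPKM in Con. Its adjusted p in limma was 0.13 with all libraries, 0.046 without ELS replicate 2 and 0.087 without Con replicate 4.

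Channels, receptors and transporters numbered 16, with a median ratio of 1.28, or 1.18 without Con replicate 4. That library was under 0.7 of the median of the other controls in 11 of these 16, against 29.4% of all members. Kcnk4 (ENSRNOG00000021140), the mechanosensitive leak potassium channel TRAAK, had 46.0, 45.7, 46.3, 47.3 and 49.0 RPKM in ELS replicates 1 to 5, against 36.2, 35.2, 41.8, 15.99 and 40.2 RPKM in Con replicates 1 to 5. Atp2b4 (ENSRNOG00000003031), a calcium pump of the plasma membrane, had 47.3, 47.1, 50.8, 55.4 and 50.4 RPKM in ELS replicates 1 to 5, against 43.3, 38.3, 39.5, 12.9 and 43.5 RPKM in Con replicates 1 to 5. In both, Con replicate 4 was under 0.5 of the median of the other controls. The ratio was 1.38 for Kcnk4, or 1.22 without Con replicate 4, and 1.41 for Atp2b4, or 1.22.

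Receptor subunits also had their lowest control, by far, in replicate 4. Gabra3, a GABA-A receptor subunit, had 23.9, 25.3, 26.4, 28.3 and 26.2 RPKM in ELS replicates 1 to 5, against 23.8, 21.5, 20.1, 8.86 and 23.4 RPKM in Con replicates 1 to 5, and its ratio of 1.33 became 1.17 without Con replicate 4. Gabrd, the subunit of extrasynaptic GABA-A receptors, had a ratio of 1.28, or 1.14. Grik3, a kainate receptor subunit, had a ratio of 1.37, or 1.21. Fxyd7, a small regulator of the sodium-potassium pump in brain, had a ratio of 1.38, or 1.28.

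In some members that library was not the lowest control. Slc8a2 (ENSRNOG00000001492), a sodium-calcium exchanger, had 84.4, 85.0, 101, 98.1 and 88.6 RPKM in ELS replicates 1 to 5, against 74.5, 70.2, 70.5, 82.7 and 75.9 RPKM in Con replicates 1 to 5. The highest control was replicate 4, and the ratio was 1.22 with it and 1.26 without it. Cacna1a, the pore of P/Q-type calcium channels, averaged 28.1 ± 2.02 RPKM in ELS and 24.1 ± 1.07 RPKM in Con (SD, n = 5 each), with a ratio of 1.17, or 1.18. In all, 21 members had a higher ratio without Con replicate 4 than with it. Dnajc18 (ENSRNOG00000019995), an Hsp40-type cochaperone, had 21.7, 21.8, 22.4, 23.1 and 21.0 RPKM in ELS replicates 1 to 5, against 18.4, 10.6, 16.8, 19.0 and 20.3 RPKM in Con replicates 1 to 5. Its lowest control was replicate 2, and its ratio was 1.296, or 1.34 without Con replicate 4.

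**Figure D3:**
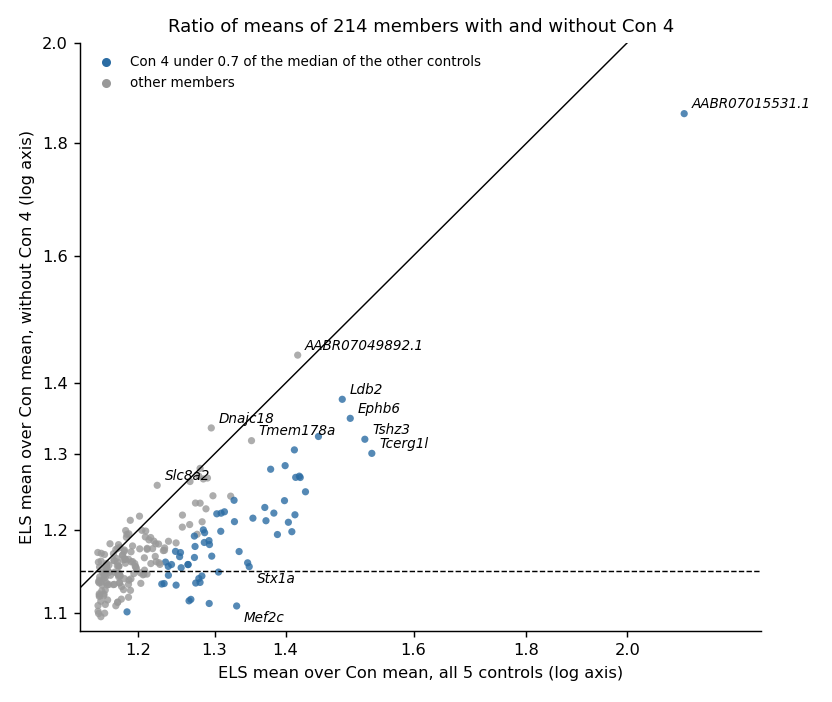
Ratio of ELS mean to Con mean for the 214 members with all 5 controls (horizontal axis, log) and without Con replicate 4 (vertical axis, log). The solid line marks equal ratios and the dashed line 1.15, and blue points are the 63 members in which Con replicate 4 was under 0.7 of the median of the other controls; 21 members lie above the solid line.

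Over all members, Con replicate 4 was under 0.7 of the median of the other controls in 63, 29.4%, against 8.63% of all genes at or above the control minimum, and under 0.5 in 29 members, 13.6%, against 3.12%. It was above that median in 20 members, 9.35%, against 49.8%. As a low control helps a gene to meet the ratio, these shares are partly set by the rule. Of the 12 members with the highest ratio, 7 were still among the first 12 when that library was left out.

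Cell adhesion and guidance molecules numbered 15, with a median ratio of 1.24, or 1.16 without Con replicate 4. Ephb6 (ENSRNOG00000014367), an ephrin receptor whose kinase domain is inactive, had 43.3, 44.6, 48.9, 51.8 and 49.5 RPKM in ELS replicates 1 to 5, against 38.3, 30.1, 33.1, 17.8 and 39.7 RPKM in Con replicates 1 to 5. The lowest ELS library was 1.09 times the highest control, and Con replicate 4 was again the lowest of all. The ratio was 1.498, or 1.35 without Con replicate 4. Clstn1 (ENSRNOG00000016398), a calsyntenin of the synaptic membrane, had 346, 309, 381, 375 and 350.3 RPKM in ELS replicates 1 to 5, against 286, 279, 279, 189 and 308 RPKM in Con replicates 1 to 5, and its ratio was 1.31, or 1.22. The latrophilins Adgrl2 and Adgrl1, adhesion receptors that bind teneurins and FLRT proteins, had ratios of 1.42 and 1.19, or 1.27 and 1.16 without Con replicate 4. Cdh18, a cadherin, had a ratio of 1.43, or 1.25. Of 40 genes in the list for synaptic adhesion at or above the control minimum, 5 were members, 12.5%, against 2.02% of all such genes. Of 41 genes tested in the list, 13 were higher and 3 lower at an unadjusted p under 0.05, against 10.1% and 10.3% of all genes tested.

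Trpv6 (ENSRNOG00000014714), a calcium-selective channel best known from epithelia, had 13.6, 13.9, 15.8, 15.8 and 15.6 RPKM in ELS replicates 1 to 5, against 12.8, 9.33, 11.1, 6.40 and 11.8 RPKM in Con replicates 1 to 5. It lies next to Ephb6 on chromosome 4, on the other strand, with 117 bases between the ends of the RefSeq gene models. Per length Ephb6 was the higher of the pair in every library, and Con replicate 4 was the lowest control in both. With the strand setting of the counting unknown, reads that run past the end of one gene could have been counted for the other. In RefSeq order, 7 of 9698 pairs of neighbouring genes at or above the control minimum had a member on both sides, and 198 members could be matched.

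Kinases, phosphatases and GTPase regulators numbered 21, with a median ratio of 1.19, or 1.16 without Con replicate 4. Camk2n1 (ENSRNOG00000016322), the inhibitor of calcium/calmodulin-dependent kinase II, was the most abundant member and had 1032, 1042, 1155, 1118 and 1148 RPKM in ELS replicates 1 to 5, against 949.7, 885, 988, 293 and 968 RPKM in Con replicates 1 to 5. The ELS libraries and 4 of the controls were within a small range, Con replicate 4 was at 0.306 of the median of the other controls, and the ratio of 1.35 became 1.16 without it. Ywhah (ENSRNOG00000055471), the 14-3-3 eta adaptor whose promoter is printed above, had 704, 656, 738, 753 and 709 RPKM in ELS replicates 1 to 5, against 599.7, 589, 598, 519 and 632 RPKM in Con replicates 1 to 5. Its ratio moved little, 1.21 with all controls and 1.18 without Con replicate 4.

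The mitogen-activated kinases among the members were Mapk4, an atypical ERK, Mapk11, the p38 beta kinase, and Map2k4, which activates JNK and p38. Their ratios were 1.32, 1.31 and 1.18 with all controls, and 1.24, 1.22 and 1.16 without Con replicate 4. Of 32 genes in that list at or above the control minimum, 9.38% were members. In the whole list 11 genes were higher and 1 lower at an unadjusted p under 0.05, against 10.1% and 10.3% of all genes tested. The lower one was Braf, the kinase that feeds the ERK cascade, at 6.63 ± 2.28 RPKM in ELS and 10.04 ± 0.880 RPKM in Con (SD, n = 5 each). Its adjusted p in limma was 0.14 with all libraries, 0.030 without ELS replicate 2 and 0.147 without Con replicate 4. Calcium, calmodulin and protein kinase C signalling, with 35 genes, cyclic AMP and protein kinase A, with 29, and mTOR and PI3 kinase signalling, with 32, held 0 members each. With 2.02% of all genes at or above the control minimum as members, lists of this size would hold about 1 or none, so nothing is read from these counts.

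Cytoskeletal and motor proteins numbered 13, with a median ratio of 1.19, or 1.16 without Con replicate 4. Cyfip2 (ENSRNOG00000006557), a subunit of the WAVE complex that drives actin branching, had 293, 256, 289.6, 304 and 289 RPKM in ELS replicates 1 to 5, against 242, 224, 235, 169.6 and 244 RPKM in Con replicates 1 to 5, and its ratio was 1.28, or 1.21. Klc1 (ENSRNOG00000011572), a light chain of the kinesin motor, had 214, 201, 212, 225 and 209 RPKM in ELS replicates 1 to 5, against 193, 195, 188, 144 and 197 RPKM in Con replicates 1 to 5. For Klc1 the ratio of 1.15 became 1.096 without Con replicate 4, under the limit. Among genes of these lists that ran the other way, Map2, the dendritic microtubule protein, averaged 93.2 ± 22.8 RPKM in ELS and 132 ± 4.18 RPKM in Con, and Kif5b, a kinesin heavy chain, 26.6 ± 4.57 RPKM in ELS and 36.4 ± 4.80 RPKM in Con (SD, n = 5 each). For Map2, ELS replicate 2 was at 133.7 RPKM and the other ELS libraries at 78.7 to 86.7 RPKM. Without that library the adjusted p in limma was 0.00053 for Map2, against 0.13 with it, and 0.047 for Kif5b, against 0.13. With Con replicate 4 left out instead, it was 0.11 for Map2 and 0.13 for Kif5b.

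Membrane traffic and the secretory pathway gave 17 members with a median ratio of 1.19, or 1.16 without Con replicate 4. Zdhhc22, a palmitoyltransferase, had the highest ratio of them, 1.42, or 1.27. Rab6a, a Golgi GTPase, averaged 185 ± 8.74 RPKM in ELS and 160.4 ± 7.83 RPKM in Con (SD, n = 5 each), with a ratio of 1.15, or 1.16. Vps41, a subunit of the HOPS complex for fusion with lysosomes, had 1.19, or 1.18.

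Ubiquitin and protein turnover gave 15 members with a median ratio of 1.18, or 1.14 without Con replicate 4, and 5 of the 15 still met the rule. Fbxw7 (ENSRNOG00000010889), the substrate receptor of an SCF ubiquitin ligase, had 34.5, 31.0, 32.7, 36.1 and 33.4 RPKM in ELS replicates 1 to 5, against 29.4, 29.4, 29.7, 15.9 and 30.0 RPKM in Con replicates 1 to 5. The library Con replicate 4 was at 0.538 of the median of the other controls, and the ratio of 1.25 became 1.13 without it. Fbxl16, a neuronal F-box protein, averaged 262 ± 9.64 RPKM in ELS and 223 ± 28.2 RPKM in Con (SD, n = 5 each), with a ratio of 1.18, or 1.12. Of 48 ubiquitin ligases and deubiquitinases at or above the control minimum, 5 were members, 10.4%, against 2.02% of all such genes. Of these 48, 14 were higher and 5 lower at an unadjusted p under 0.05, against 10.1% and 10.3% of all genes tested.

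Metabolic enzymes gave 22 members, with a median ratio of 1.19, or 1.15 without Con replicate 4. Pyruvate kinase M, the last step of glycolysis, is listed under 2 identifiers, and both were members. The row ENSRNOG00000011329 of Pkm had 116, 115, 123, 133 and 122 RPKM in ELS replicates 1 to 5, against 102, 104, 101, 91.3 and 111 RPKM in Con replicates 1 to 5. The row ENSRNOG00000047276 of Pkm had 49.5, 51.2, 56.3, 57.7 and 53.2 RPKM in ELS replicates 1 to 5, against 46.4, 47.7, 44.0, 39.0 and 46.9 RPKM in Con replicates 1 to 5. In both rows Con replicate 4 was the lowest library and ELS replicate 4 the highest. Near-identical copies can share reads, so the 2 rows may not be independent, although both are counted among the members and in the list of glycolysis. Hk1 and Ldha, hexokinase 1 and lactate dehydrogenase A, were not members and averaged 109.6 ± 7.48 RPKM in ELS and 95.2 ± 2.04 RPKM in Con for Hk1 and 93.7 ± 4.07 RPKM in ELS and 81.6 ± 5.84 RPKM in Con for Ldha (SD, n = 5 each). The adjusted p in limma was 0.13 for both with all libraries. Without ELS replicate 2 it was 0.016 for Hk1 and 0.070 for Ldha, and without Con replicate 4 it was 0.101 and 0.106. Of 21 genes of glycolysis and glucose uptake tested, 12 were higher and 1 lower at an unadjusted p under 0.05, against 10.1% and 10.3% of all genes. Fabp3, a fatty acid binding protein, had a ratio of 1.31, or 1.149 without Con replicate 4, under the limit. Gls2, a mitochondrial glutaminase, had 1.16, or 1.12, also under the limit.

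RNA handling and translation gave 12 members. Con replicate 4 was under 0.7 of the median of the other controls in 1 of these 12, against 29.4% of all members. The median ratio of the 12 was 1.18, or 1.17 without that library. Rbm11, a tissue-restricted splicing regulator, had 5.17, 5.07, 5.96, 5.89 and 5.69 RPKM in ELS replicates 1 to 5, against 3.83, 4.24, 4.54, 2.64 and 4.42 RPKM in Con replicates 1 to 5, with a ratio of 1.41, or 1.31. Con replicate 4 was the lowest control for Rbm11. Ddx10, a helicase of ribosome assembly, had a ratio of 1.28, or 1.27. Gars, which charges glycine tRNA, had 1.15, or 1.11.

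The remaining 49 members were not assigned to a role. Over all 214 members, 17 had only a clone or locus name. AABR07015531.1 (ENSRNOG00000049999), which has no functional name in the table, had the highest ratio of any member, 2.12, or 1.86 without Con replicate 4. It had 9.79, 10.2, 11.1, 14.4 and 10.7 RPKM in ELS replicates 1 to 5, against 4.94, 5.96, 6.11, 2.26 and 7.19 RPKM in Con replicates 1 to 5. Its counted length was 99 bases and its mean was 16.5 reads per library, the fewest of any member. Relative counting error is therefore larger in its values than in those of other members. AABR07049892.1 (ENSRNOG00000061538) had 6.41, 5.88, 4.77, 5.28 and 8.0 RPKM in ELS replicates 1 to 5, against 4.39, 3.80, 4.53, 4.56 and 4.11 RPKM in Con replicates 1 to 5, and its ratio was 1.42, or 1.44. In this gene ELS replicate 5 was the highest library and ELS replicate 3 the nearest to the controls, which lay close together. Tmem178a, a membrane protein, had 54.5, 46.3, 53.2, 49.4 and 48.1 RPKM in ELS replicates 1 to 5, against 37.1, 33.7, 38.4, 33.5 and 43.3 RPKM in Con replicates 1 to 5, and its ratio was 1.35, or 1.32. Con replicate 5 was its highest control, and ELS replicate 2 its lowest ELS library. The median member had 1443.5 reads per library, and 48 members had fewer than 500.

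The members were more abundant than other genes. The rule sets a minimum, and its demand for no overlap at small ratios depends on counting noise, which is larger at few reads. Abundance and counted length are therefore not independent of the selection and are given as description. Their control mean had a median of 25.6 RPKM, against 11.5 RPKM over all genes at or above the minimum. In 4 bins of control mean with near-equal numbers of genes, low to high, the members numbered 24, 41, 39 and 110, or 0.905%, 1.547%, 1.47% and 4.15% of the genes there. The 212 genes that met the mirrored rule numbered 77, 61, 32 and 42 in the same bins. Counted length had a median of 2744.5 bases in the members and 2281 bases in all such genes, and in 4 bins of length, short to long, the members were 1.395%, 1.85%, 2.26% and 2.57% of the genes.

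**Figure D4:**
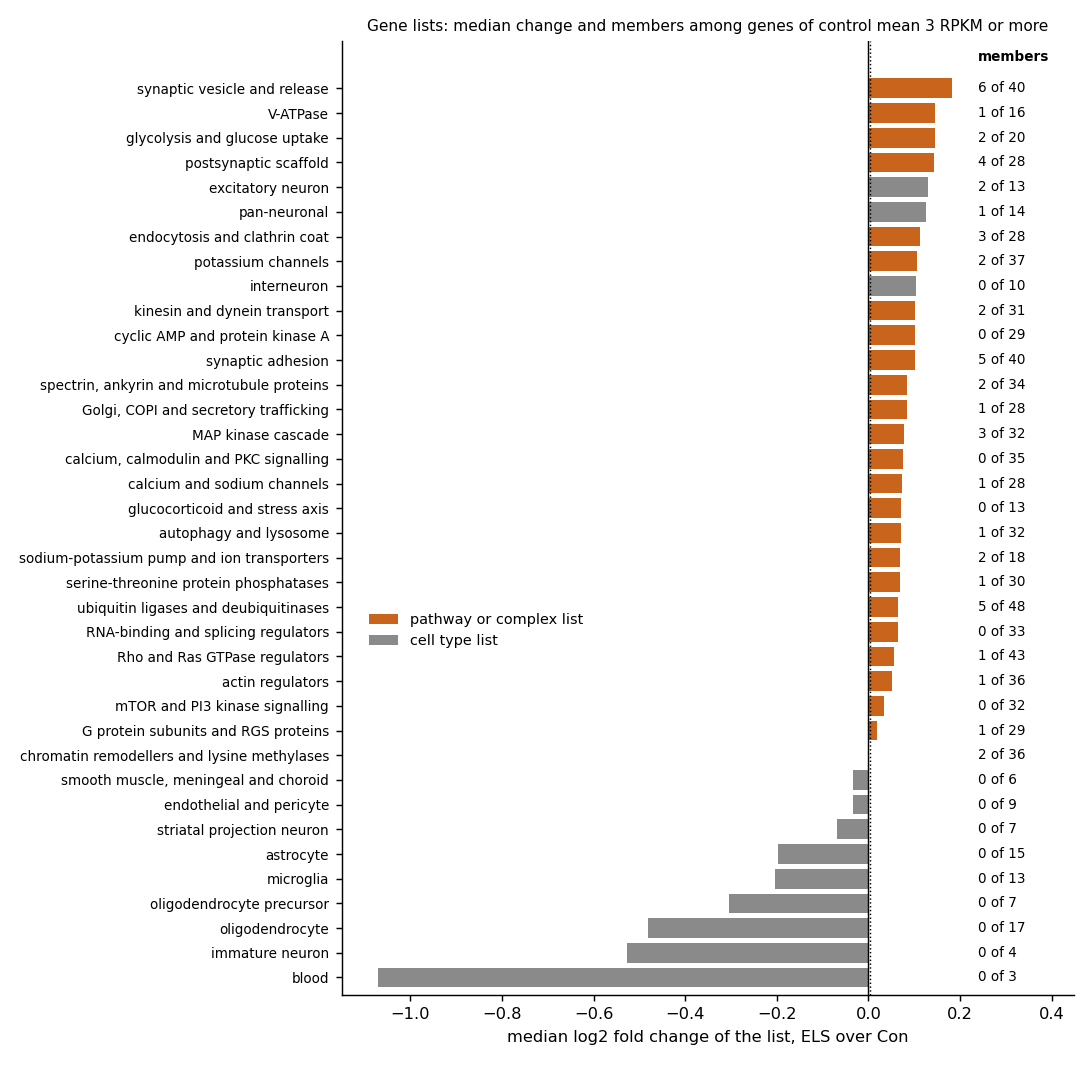
Median log2 difference, ELS over Con, of each gene list (horizontal axis), with the number of members among the list's genes at or above 3 RPKM in Con written at the right; orange bars are pathway lists and grey bars cell type lists. The dotted line is the median over all genes tested, 0.0037, and all glial lists lie below 0 with 0 members.

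Across 37 gene lists, 22 held at least 1 member, and 46 of the 214 members were in any list. By share of members the pathway lists ran from synaptic vesicle and release, 15%, through postsynaptic scaffold, 14.3%, and synaptic adhesion, 12.5%, to lists with none. The lists were chosen with earlier results of these data known. Over all genes the share also differed by abundance, with 0.905% in the lowest bin of control mean and 4.15% in the highest. The order of the lists is therefore a description, and whether any list holds more members than genes of like abundance was not tested. The postsynaptic scaffold members included Cyfip2, Iqsec2 and Kalrn, while Dlg4, the scaffold PSD-95, was not a member. Dlg4 averaged 196 ± 8.77 RPKM in ELS and 178 ± 6.64 RPKM in Con (SD, n = 5 each). Its adjusted p in limma was 0.14 with all libraries, 0.045 without ELS replicate 2 and 0.13 without Con replicate 4. The V-ATPase, the proton pump that fills vesicles and acidifies lysosomes, had 1 member of 16, Atp6v1b2, but 12 of its genes were higher and 0 lower at an unadjusted p under 0.05. The glucocorticoid and stress axis, 13 genes at or above the minimum, held 0 members and 0 genes at an unadjusted p under 0.05 in either direction. Against shares of 2.02% for members and 10.1% and 10.3% for the unadjusted p over all genes, a list this short says little. The glucocorticoid receptor Nr3c1 averaged 14.0 ± 0.707 RPKM in ELS and 14.4 ± 1.35 RPKM in Con in its more abundant row, and Fkbp5, a target gene of that receptor, 10.4 ± 1.48 RPKM in ELS and 10.4 ± 3.67 RPKM in Con (SD, n = 5 each). For Fkbp5, Con replicate 4 was at 16.9 RPKM and the other controls at 8.36 to 9.25 RPKM. Without that control the Con mean of Fkbp5 was 8.77 RPKM and the log2 difference 0.24 ± 0.096 (SE), against 0.047 with it, at an adjusted p of 0.195 in limma.

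Summed markers of cell types are given beside these values. Of 17 oligodendrocyte markers, all 17 had a lower mean in ELS, and their summed level was 950 to 1244 RPKM in ELS, against 1261 to 2544 RPKM in Con. Con replicate 4 was the highest at 2544 RPKM, and the other controls ran from 1261 to 1608 RPKM. All 15 astrocyte markers were lower in mean, with sums of 1872 to 2120.1 RPKM in ELS and 2269.7 to 2424 RPKM in Con. All 13 microglial markers were lower too, with sums of 205 to 254 RPKM in ELS and 237 to 287 RPKM in Con. Of the 7 oligodendrocyte precursor markers all were lower, with 72.7 to 84.2 RPKM in ELS and 93.5 to 118 RPKM in Con.

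Neuronal markers differed by list. Of 14 pan-neuronal markers 12 had a higher mean in ELS, and the sum was 2761 to 3108 RPKM in ELS, against 2392 to 2752 RPKM in Con, with Con replicate 4 lowest. Of 16 rows for excitatory neuron markers 10 were higher, with sums of 2110.3 to 2439 RPKM in ELS and 1952 to 2200.2 RPKM in Con, where replicate 4 was the highest control. Of the 12 interneuron markers 7 were higher and 5 lower in mean, and they gave 403 to 444 RPKM in ELS and 258 to 439.8 RPKM in Con, with replicate 4 at 258 RPKM and the other controls at 371 RPKM or above. Of 9 striatal projection neuron markers 8 were lower in mean, and they summed to 109 to 123 RPKM in ELS and 60.4 to 220.2 RPKM in Con. Blood genes, 4 rows and all lower in ELS, summed to 214 to 438 RPKM in ELS and 412 to 981 RPKM in Con. Endothelial and pericyte markers gave 97.1 to 108 RPKM in ELS and 87.2 to 114 RPKM in Con, and the 7 immature neuron markers, all lower in mean, 49.5 to 60.8 RPKM in ELS and 60.6 to 84.1 RPKM in Con. Smooth muscle, meningeal and choroid markers gave 27.6 to 32.2 RPKM in ELS and 25.7 to 57.6 RPKM in Con.

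Not every listed marker was measured. Rows against listed genes were 7 of 11 for smooth muscle, meninges and choroid, 10 of 13 for endothelium and pericytes, and 4 of 6 for blood. They were 12 of 14 for interneurons, 7 of 9 for oligodendrocyte precursors, 13 of 14 for microglia and 7 of 8 for immature neurons. The markers that were measured were above 0 in every library, with Ttr of the choroid plexus as the 1 exception, at 0 in some libraries. The labelled tissue thus carried the markers of cortical excitatory neurons and of glia in all 10 libraries. Of the members, 3 were themselves in a cell type list, Cux2, Emx1 and Syt1. The part of these cell type levels in the values of the members was not tested.

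**Figure D5:**
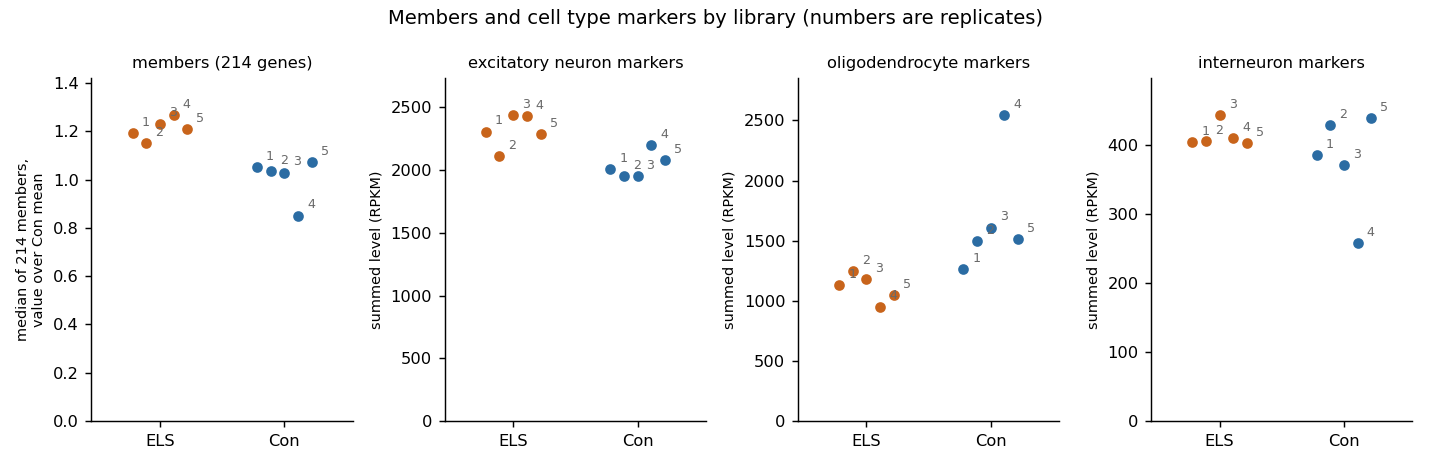
Values by library for the 5 ELS and the 5 Con samples (horizontal axes, points numbered by replicate). The first panel gives the median over the 214 members of the value divided by the control mean, and the others give the summed level in RPKM of the excitatory neuron, oligodendrocyte and interneuron markers; Con replicate 4 is lowest in the first panel at 0.850 and highest for oligodendrocyte markers at 2544 RPKM.

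The median of all members relative to the control mean was 1.19, 1.15, 1.23, 1.27 and 1.21 in ELS replicates 1 to 5, against 1.05, 1.03, 1.03, 0.850 and 1.07 in Con replicates 1 to 5. For all genes at or above the control minimum this median was 0.994 to 1.02 in ELS and 0.987 to 1.01 in Con. ELS replicate 2 was the nearest of the ELS libraries to the controls. With Con replicate 4 and ELS replicate 2 both left out, limma called 3.51% of 14403 genes higher in ELS at an adjusted p of 0.05, and 138 members were among them. With all 10 libraries and limma-voom's sample quality weights on the recovered reads, it called 2.06% of genes higher, and 119 members were among those. As the members were chosen on the same values, these counts show which members the fit could separate and do not test the set.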

How the data were processed

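RNA was sequenced from prefrontal cortex of 5 ELS and 5 Con rats, and groups and replicate numbers were taken from the sample titles. Per the labels' protocols, RNA was column-extracted with DNase digestion and libraries came from a stranded mRNA kit. Alignment with STAR to rn6 and counting with featureCounts are named in the submitters' processing notes. For neither tool was a version, strand setting or annotation given in the sources used here. A table of RPKM values for 16041 genes was deposited by the authors, and whether paired fragments were counted as FPKM is not stated. Whole reads were recovered from the steps of the values for 16015 genes, 100% of those above 0, to within 0.002 reads, which gave lengths and totals of 18838898 to 22311136 reads. 0 columns belonged to other samples.

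The rule was applied to the deposited RPKM. Values on log2(RPKM + 0.1) of genes with at least 0.5 RPKM in 5 libraries were fitted with limma 3.58.1 in R 4.3.3 (trend, robust moderation, two-sided, Benjamini-Hochberg). A limma-voom fit of the recovered reads called 0 genes. The procedure was also run on simulated data in which no library stood apart and the changes were larger than in most members. That simulation does not show how the procedure behaves with such a library or with changes this small. Standard errors and SDs cover these tissue samples only. Genes that overlap on opposite strands, or near-identical copies, could share reads. Genes were grouped by role after their values were seen. The members and the lists were chosen with earlier results of these data known.

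Named genes were the 12 largest ratios, the 8 widest gaps, the 6 highest control means, up to 3 members per list, those just inside and outside each threshold, 2 non-members per direction in lists with 2 or more members, and Nr3c1 and Fkbp5. Members outside it, such as Mef2c, Lmo4, Gabra3, Grik3, Dnajc18, Ddx10, Elp3, Fabp3, Gls2 and Tmem178a, were chosen after their values were seen. Some genes under these rules are not reported here. RefSeq windows (GRCr8) were matched by symbol or synonym for 156 members. Alternatives were the thresholds, pseudocount, filter, scaling, voom with and without sample weights, a replicate block, and leaving out each library.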

Additional observations from a re-analysis of the deposited data

Results flagged for a closer look

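In 156 groups of 5 values, for the named members and the marker sums, 36 had 1 library far from the other 4 by Dixon's criterion. By chance it marks about 1 group in 20 that were not chosen on their values, but the members were chosen on these values, so that rate is no comparison for them. Of the 36, 30 were Con replicate 4 and 2 were ELS replicate 2. In the genes below, Con replicate 4 was the lowest of the 10 libraries. Among genes of vesicle release, it stood apart for Stx1a with 30.5 RPKM against 104 to 109 RPKM in the other controls and Doc2a with 5.95 RPKM against 18.2 to 21.4 RPKM. Among genes of transcription and chromatin, it stood apart for Tcerg1l with 2.65 RPKM against 10.4 to 11.4 RPKM in the other controls, Tshz3 with 2.36 RPKM against 6.34 to 7.21 RPKM, Cux2 with 4.46 RPKM against 17.2 to 18.5 RPKM, Emx1 with 4.35 RPKM against 5.92 to 6.46 RPKM and Chd5 with 32.2 RPKM against 41.6 to 42.6 RPKM. Among channels, pumps and receptor subunits, it stood apart for Atp2b4 with 12.9 RPKM against 38.3 to 43.5 RPKM in the other controls, Kcnk4 with 15.99 RPKM against 35.2 to 41.8 RPKM, Gabrd with 11.1 RPKM against 23.1 to 25.5 RPKM and Kcnh3 with 22.8 RPKM against 36.1 to 39.5 RPKM. Among adhesion and cytoskeletal genes, it stood apart for Cdh18 with 3.27 RPKM against 8.11 to 9.62 RPKM in the other controls, Clstn1 with 189 RPKM against 279 to 308 RPKM, Cyfip2 with 169.6 RPKM against 224 to 244 RPKM and Klc1 with 144 RPKM against 188 to 197 RPKM. Among signalling genes, it stood apart for Camk2n1 with 293 RPKM against 885 to 988 RPKM in the other controls, Cit with 8.90 RPKM against 19.0 to 20.9 RPKM, Rap1gap2 with 34.1 RPKM against 44.5 to 48.1 RPKM and Gnb1 with 133 RPKM against 154 to 159 RPKM. Among genes of protein turnover, it stood apart for Fbxw7 with 15.9 RPKM against 29.4 to 30.0 RPKM in the other controls, Fbxl16 with 172 RPKM against 231 to 238 RPKM and Fbxo41 with 19.8 RPKM against 23.9 to 24.1 RPKM. Among the remaining named members, it stood apart for Zdhhc22 with 5.75 RPKM against 11.4 to 13.1 RPKM in the other controls, Gars with 27.9 RPKM against 33.2 to 35.1 RPKM, Fdps with 37.3 RPKM against 45.9 to 49.1 RPKM, RGD1305587 with 8.43 RPKM against 19.8 to 22.5 RPKM and Rtn3 with 176 RPKM against 198 to 207 RPKM. The summed pan-neuronal markers gave 2392 RPKM in Con replicate 4 and 2651 to 2752 RPKM in the other controls. The summed oligodendrocyte markers gave 2544 RPKM in Con replicate 4 and 1261 to 1608 RPKM in the other controls. The summed oligodendrocyte precursor markers gave 118 RPKM in Con replicate 4 and 93.5 to 100.2 RPKM in the other controls.

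In ELS, 6 groups of values had a library apart. AABR07015531.1 had 14.4 RPKM in ELS replicate 4, the highest value, and 9.79 to 11.1 RPKM in the other ELS libraries. RGD1559441 had 9.47 RPKM in ELS replicate 1, the highest value, and 7.71 to 8.15 RPKM in the other ELS libraries. Tmem109 had 14.5 RPKM in ELS replicate 3, the highest value, and 11.5 to 12.2 RPKM in the other ELS libraries. Cit had 20.9 RPKM in ELS replicate 2, the lowest value, and 23.4 to 24.1 RPKM in the other ELS libraries. Cux2 had 19.4 RPKM in ELS replicate 2, the lowest value, and 21.5 to 22.2 RPKM in the other ELS libraries. The summed interneuron markers had 444 RPKM in ELS replicate 3, the highest value, and 403 to 410.3 RPKM in the other ELS libraries.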

How the results depend on the processing

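The number of genes that met the rule followed its ratio, with 339 at 1.1, 111 at 1.2, 36 at 1.3 and 3 at 1.5, against 214 as given. It was 188 to 506 when 1 library was left out, 470 without Con replicate 4 and ELS replicate 2 together, and 165 to 228 under another control minimum or scaling. Genes past the adjusted p numbered 0 as given and 945 with voom sample weights (301 higher), which gave Con replicate 4 the lowest weight, 0.171. They numbered 1071 without Con replicate 4 and ELS replicate 2 together (506 higher), and 0 to 440 with 1 library left out. The cause of these differences was not tested. The median log2 difference of the members was 0.27 as given, 0.22 with voom weights and 0.22 to 0.29 with 1 library left out. Nr3c1 (ENSRNOG00000014096) changed sign to 0.0106 without Con replicate 5, within a range of -0.0636 to 0.0106 with 1 library left out. Fkbp5 changed sign to -0.0106 without Con replicate 1, -0.0164 without Con replicate 5 and -0.0188 without ELS replicate 1, within a range of -0.0188 to 0.236. Of the other values of named genes under the alternatives, 2182 kept their direction and their side of the threshold and 194 came past the threshold in the same direction. Medians of gene lists moved by less than the spread between libraries in 708 cases and by more in 32. Same-numbered libraries shared only a number: their deviations correlated at -0.082 to 0.066, and not every library correlated best with its own number. The replicate block left the median at 0.27 and the calls at 0, and changed no call; genes higher at an unadjusted p under 0.05 numbered 1098 with it and 1475 without it. No scaling moved the median of all genes by more than 0.1 on the log2 scale. The 48 members with under 500 reads per library, AABR07015531.1 first, are those where depth limits a ratio of this size most.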

Other observations

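In RefSeq order, 7 pairs of neighbouring genes were both members. Besides Ephb6 and Trpv6 they were Tmem132a and Tmem109, RGD1562310 and Rnft2, Elp3 and Ccdc25, AABR07054361.1 and E2f1, Spr and Emx1, and Acvr1b and LOC103692984. Acvr1b and LOC103692984 overlap in the annotation, and 30 bases lie between RGD1562310 and Rnft2, so their reads may be shared. E2f1, a cell cycle transcription factor, had 14.3, 13.5, 15.1, 14.97 and 15.9 RPKM in ELS replicates 1 to 5, against 12.2, 12.2, 9.95, 6.76 and 11.7 RPKM in Con replicates 1 to 5, and its ratio was 1.40, or 1.28 without Con replicate 4. Elp3, the catalytic subunit of the Elongator complex, had a ratio of 1.25, or 1.17.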
